A study of Mus musculus with 12 samples.

Results

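Lcn2 encodes lipocalin 2, an acute-phase protein of epithelia and neutrophils, and it is described here with 7 other genes of the acute-phase response and of complement: Saa3, C3, Cfb, C1ra, Serping1, Serpina3n and Steap4. The 8 genes were found by their symbol among the 55421 genes of a count table, and each symbol matched 1 gene. They were chosen because the level of Lcn2 was much higher in paclitaxel-treated cells of both derivatives, so their paclitaxel values are given as a description, with no test. The comparisons between the derivatives are tested. Of the 8 genes, 6 had enough reads to be tested and 2, Cfb and Serping1, did not.

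The libraries were made from poly(A) RNA of the MOC2 line, which derives from a squamous carcinoma of the mouse mouth, 12 in all, with 3 in each of 4 groups. MOC2-25 cells are labelled EV-Proficient and MOC2-27 cells EV-Deficient, where EV stands for extracellular vesicles, the membrane-bound particles that cells release, and the study asked what vesicles from senescent cells signal. Each derivative was given either DMSO, the solvent, or paclitaxel at 600 nM during 48 h. Paclitaxel stabilises microtubules and served here to make the cells senescent. All groups are MOC2 cells, and the medium described in the labels held fetal bovine serum, hydrocortisone, cholera toxin, transferrin, insulin, tri-iodothyronine and EGF. Each EV label stands for 1 derivative, and the labels name neither the gene that was blocked nor whether a derivative is a clone, so a difference between EV labels and a difference between these derivatives cannot be told apart. The labels do not say that the libraries of a group came from separate cultures begun independently, so p-values measure the spread between these samples, which may be technical.

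Library totals ran from 23263472 to 62955757 counts. A floor of 3 counts in a library corresponded to between 0.0492 and 0.121 CPM, the unit of level used throughout, which divides the reads of a gene by the scaled total of the library. Mitochondrial transcripts took 0.55 to 0.729% of the counts under DMSO, 0.846 to 0.907% in the EV-Proficient and 1.07 to 1.45% in the EV-Deficient paclitaxel libraries, and their part in the results was not tested. The authors' table also has a row for an added sequence, dngfr, and the labels do not say which derivative carries it. It stood at 5.73 to 12.2 CPM in the EV-Proficient and 1.89 to 2.54 CPM in the EV-Deficient DMSO libraries, but at 2.47 to 3.76 CPM in the EV-Proficient and 9.63 to 12.4 CPM in the EV-Deficient paclitaxel libraries. The order of the EV labels for dngfr was thus the opposite under the drug, an order that an exchange of the EV labels among the libraries of 1 treatment would give. Other genes, picked here after their values were seen, had the same kind of crossing. In the EV-Proficient DMSO, EV-Deficient DMSO, EV-Proficient paclitaxel and EV-Deficient paclitaxel groups, mean levels were 191, 681, 191 and 80 CPM for Krt14, 0.944, 12.4, 11.6 and 5.34 CPM for Csf1r and 2.59, 27.2, 63.7 and 10.4 CPM for Itgb2. Of the 2834 genes called between the EV labels both without drug and under paclitaxel, 2722 (96%) had opposite directions under the 2 treatments and 112 had the same direction. The paclitaxel effect was called different between the EV labels for 7370 genes with the labels as given, and for 1739 with the EV labels exchanged in either treatment, an alternative chosen after seeing the data. The files do not say whether labels were exchanged, or in which treatment. Every value below is given for the libraries as labelled, directions between EV labels or within one EV label rest on those labels, and values with the labels exchanged are given beside the main results. A comparison of all 6 paclitaxel with all 6 DMSO libraries does not use the EV label.

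The acute-phase response is the change in secreted proteins that follows infection or tissue damage; it is best known in liver, and epithelial and tumour cells make some of the same proteins. Lipocalin 2 binds bacterial siderophores and so withholds iron from bacteria, SAA3 is a serum amyloid A protein made outside the liver, Serpina3n is a serine protease inhibitor, and STEAP4 is a metalloreductase that reduces iron and copper. C3 is the central protein of the complement cascade, factor B (Cfb) supplies the protease of the alternative pathway, C1r (C1ra) is a protease of the classical pathway, and the C1 inhibitor (Serping1) blocks C1r and C1s. Genes of this kind are known targets of NF-kB, C/EBP and STAT factors downstream of interleukin 1, interleukin 6, interleukin 17 and interferons.

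Promoter sequence is shown for the 4 genes that differed between the EV labels under paclitaxel, to set the binding motifs of those factors beside the values. The RefSeq promoter table (GRCm38.p6, 250 bases before to 50 after a start site) held 6 of the 8 genes. The 4 motifs below were searched on both strands: TTGCNNAA for C/EBP, TTCNNNGAA for the STAT (GAS) motif, TTTCNNTTT for the interferon (ISRE) motif, and the kappaB motif. The C/EBP motif was present in 5 of the 6 promoters, those of Lcn2, Saa3, C3, C1ra and Steap4, and in 10.8% of all 32851 promoters of this length. The GAS motif was found in 2 of the 6, Steap4 and C1ra, against 8.3% of all promoters. The kappaB motif was found in 1, Steap4, against 8.46%, and the ISRE motif in 1, Saa3, against 10.6%. No 2 matches overlapped. The Serpina3n promoter held none of these letter patterns. A match describes the letters only. The sequences below run 5′ to 3′ on the strand of the gene, with the motif matches in capitals. For Lcn2, 30 bases around its C/EBP match are shown (chr2:32387937-32387966, minus strand), which lie in an exon of a longer GENCODE M21 model of the gene. For C3 (chr17:57228137-57228386, minus strand), Steap4 (chr5:7960222-7960471, plus strand) and Saa3 (chr7:46715677-46715926, minus strand) the 250 bases before the start site are shown.
Lcn2: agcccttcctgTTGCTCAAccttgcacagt
C3: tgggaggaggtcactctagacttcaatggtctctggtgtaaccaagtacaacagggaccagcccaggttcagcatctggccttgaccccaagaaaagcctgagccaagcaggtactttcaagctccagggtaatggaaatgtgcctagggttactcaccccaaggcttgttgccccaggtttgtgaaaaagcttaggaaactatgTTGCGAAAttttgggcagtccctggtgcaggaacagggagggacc
Steap4: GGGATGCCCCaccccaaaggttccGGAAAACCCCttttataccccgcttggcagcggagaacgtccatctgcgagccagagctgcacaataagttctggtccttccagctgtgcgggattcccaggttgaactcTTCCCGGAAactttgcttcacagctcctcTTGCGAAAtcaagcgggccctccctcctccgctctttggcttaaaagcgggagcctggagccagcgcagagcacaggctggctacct
Saa3: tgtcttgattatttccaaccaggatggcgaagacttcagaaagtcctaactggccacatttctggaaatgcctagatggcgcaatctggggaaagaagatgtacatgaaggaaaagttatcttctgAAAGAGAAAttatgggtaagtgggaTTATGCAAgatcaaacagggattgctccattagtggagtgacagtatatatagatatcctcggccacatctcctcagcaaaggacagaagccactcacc
In these runs the C/EBP match begins 216 bases before the start site of Lcn2, 45 before that of C3, 87 before that of Steap4 and 99 before that of Saa3. The other capitals are, in Steap4, a pair of kappaB matches at 250 and 226 bases and a GAS match at 116 bases before the start, and in Saa3 an ISRE match at 124 bases before it.

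Lcn2, C3 and Steap4 stood higher in every paclitaxel library than in any DMSO library, and Lcn2 had the highest level of the 8 genes under the drug. Lcn2 (ENSMUSG00000026822, GRCm38 chr2:32384633-32388252, minus strand) was low without drug. Its levels in the EV-Proficient DMSO libraries were 0.512, 0.407 and 0.82 CPM, and in the EV-Deficient DMSO libraries 0.375, 0.73 and 0.526 CPM, from 17 to 35 counts in a library. Under paclitaxel they were 47.6, 47.6 and 44.5 CPM in the EV-Proficient libraries and 88.7, 87.4 and 68.4 CPM in the EV-Deficient libraries. The DMSO groups overlapped, the paclitaxel groups lay far above them, and the EV-Deficient paclitaxel libraries were the highest of all. The group means were 0.579 ± 0.215 and 0.544 ± 0.178 CPM without drug and 46.6 ± 1.77 and 81.5 ± 11.4 CPM with it (SD, n = 3). The log2 fold change with paclitaxel was 6.36 ± 0.17 (SE) in the EV-Proficient libraries, which is 82-fold, and 7.24 ± 0.17 in the EV-Deficient libraries, which is 151-fold. In a culture, more RNA per cell and more cells that express the gene cannot be told apart from these bulk values.

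Among the 4 complement genes of the 8, C3 (ENSMUSG00000024164, chr17:57203970-57228136, minus strand) was the one with the highest level. It was already expressed without drug, at 3.61, 2.63 and 3.01 CPM in the EV-Proficient and 3.23, 2.46 and 2.61 CPM in the EV-Deficient libraries. With paclitaxel its levels were 20.2, 19.5 and 13.8 CPM in the EV-Proficient and 51.9, 51.5 and 57 CPM in the EV-Deficient libraries. The lowest paclitaxel library was EV-Proficient replicate 3, which still stood well above the highest DMSO library. The C3 log2 fold change with paclitaxel was 2.54 ± 0.15 in the EV-Proficient and 4.26 ± 0.15 in the EV-Deficient libraries, or 5.83-fold and 19.2-fold.

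Steap4, the metalloreductase gene (ENSMUSG00000012428, chr5:7960457-7982213, plus strand), was nearly silent without drug. Its levels were 0.56, 0.239 and 0.761 CPM in the EV-Proficient and 0.25, 0.167 and 0.0439 CPM in the EV-Deficient DMSO libraries, from 2 to 26 counts. Under paclitaxel the EV-Proficient libraries held 3.5, 2.64 and 2.1 CPM and the EV-Deficient libraries 22.3, 15.8 and 17.2 CPM. The EV-Deficient DMSO libraries tended to be the lowest and the EV-Deficient paclitaxel libraries were the highest, so the paclitaxel log2 fold change was 6.83 ± 0.33 in that derivative and 2.45 ± 0.31 in the EV-Proficient one.

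Saa3 (ENSMUSG00000040026, chr7:46711998-46715700, minus strand) was higher with paclitaxel in the libraries labelled EV-Deficient, and stayed within the DMSO range in those labelled EV-Proficient. Its levels were 0.219, 0.407 and 0.38 CPM in the EV-Proficient and 0.107, 0.25 and 0.219 CPM in the EV-Deficient DMSO libraries. With paclitaxel they were 0.356, 0.369 and 0.364 CPM in the EV-Proficient libraries, inside the range of their DMSO libraries but above the EV-Deficient DMSO libraries, and 1.43, 1.62 and 2.08 CPM in the EV-Deficient libraries. These rest on 9 to 21 counts in the EV-Proficient and 75 to 127 counts in the EV-Deficient paclitaxel libraries. The paclitaxel log2 fold change was 0.12 ± 0.42 in the EV-Proficient libraries, and -0.12 when EV-Proficient DMSO replicate 1 was left out, against 3.16 ± 0.41 in the EV-Deficient libraries.

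The remaining 4 genes had few reads. C1ra (ENSMUSG00000055172, chr6:124512405-124523443, plus strand), for which reads could be split with its close copy C1rb, had 9, 4 and 8 counts in the EV-Proficient and 0, 5 and 5 in the EV-Deficient DMSO libraries. It had 37, 34 and 3 counts in the EV-Proficient and 34, 50 and 45 in the EV-Deficient paclitaxel libraries. The EV-Deficient paclitaxel libraries lay above all DMSO libraries, while EV-Proficient paclitaxel replicate 3 fell within the DMSO range. Its DMSO counts alone would not have passed the filter on low counts. The C1ra log2 fold changes with paclitaxel were 1.47 ± 0.67 (EV-Proficient) and 3.52 ± 0.72 (EV-Deficient).

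Serpina3n (ENSMUSG00000021091, chr12:104406729-104414329, plus strand), one of a cluster of closely related genes, had 3, 0 and 0 counts in the EV-Proficient and 0 in all of the EV-Deficient DMSO libraries. With paclitaxel it had 1, 5 and 6 counts in the EV-Proficient and 36, 18 and 7 in the EV-Deficient libraries. Against a floor of 3 counts per library, its mean in the EV-Deficient paclitaxel libraries was at least 6.46-fold higher than in the EV-Deficient DMSO libraries, and at least 4.16-fold without EV-Deficient paclitaxel replicate 1. With at most 3 counts in a DMSO library, it passed the filter on low counts through paclitaxel libraries alone. Serping1 (ENSMUSG00000023224, chr2:84765387-84775444, minus strand) had 0 counts in all 6 DMSO libraries, 0, 1 and 0 in the EV-Proficient and 4, 2 and 12 in the EV-Deficient paclitaxel libraries. The EV-Deficient mean was at least 1.73-fold higher with paclitaxel, but this rests on replicate 3, without which the mean (0.0589 CPM) was under the floor of the DMSO libraries (0.0606 CPM). Cfb (ENSMUSG00000090231, chr17:34856374-34862518, minus strand) never passed 6 counts. It had 2, 1 and 0 counts in the EV-Proficient and 0 in all of the EV-Deficient DMSO libraries, and 2, 6 and 0 in the EV-Proficient and 3, 0 and 0 in the EV-Deficient paclitaxel libraries. Its count is uncertain, because it shares 2246 exon bases on the same strand with Gm20547, which had 0 counts in every library.

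**Figure D1:**
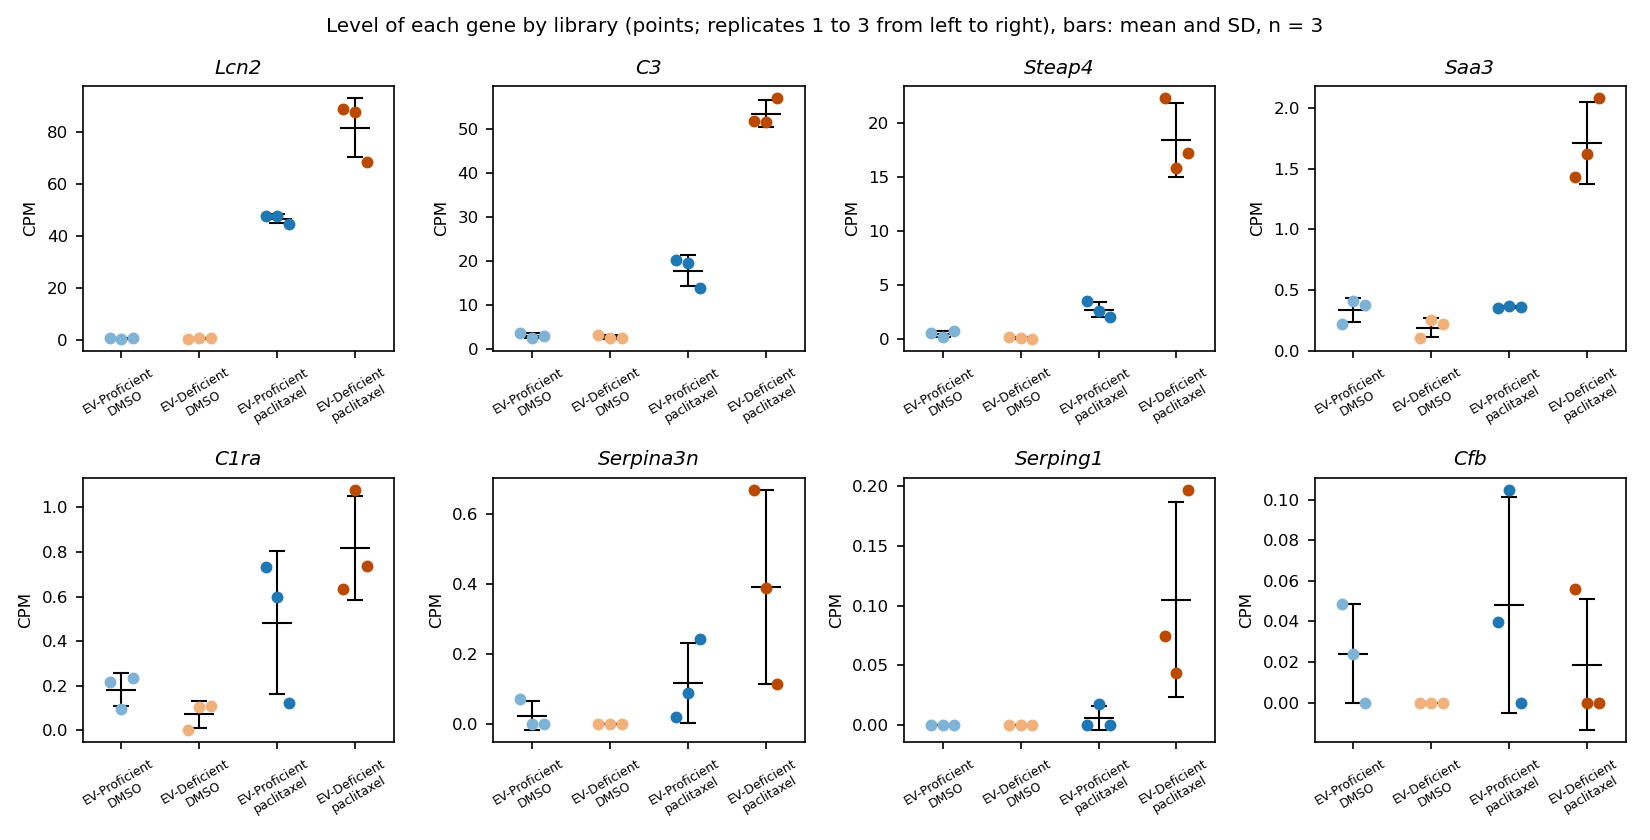
Level of each of the 8 genes in CPM (vertical axis, a scale per panel) in the 12 libraries, by EV label and treatment; points are libraries, bars the mean and SD of 3. Lcn2, C3 and Steap4 are higher in all 6 paclitaxel libraries than in all 6 DMSO libraries, and Saa3 is above them in the 3 EV-Deficient ones.

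Of the 6 tested genes, 3 (Lcn2, C3 and Steap4) had all 6 paclitaxel libraries above all 6 DMSO libraries, a pattern seen in 18.3% of the 18108 genes tested. Nothing is read from this count, since the genes were chosen on that contrast. The median paclitaxel log2 fold change of the 6 was 2.17 in the EV-Proficient and 5.55 in the EV-Deficient libraries, with all tested genes at 0.05 and 0.07 (the latter 0.26 under upper-quartile scaling). Serpina3n had a control group at 0, and with its lower bound in place of the fitted value the second median was 3.89. With the EV labels exchanged in 1 treatment, other libraries are paired. The EV-Deficient paclitaxel against the EV-Proficient DMSO libraries gave log2 fold changes of 7.16 for Lcn2, 4.11 for C3, 5.17 for Steap4 and 2.35 for Saa3. The EV-Proficient paclitaxel against the EV-Deficient DMSO libraries gave 6.43 for Lcn2, 2.69 for C3, 4.11 for Steap4 and 0.93 for Saa3, so that these 4 values were positive in either pairing. Per exon length, on the TPM scale (reads per base of exon, scaled to the same total in each library), the order in the EV-Deficient paclitaxel libraries was Lcn2 (125 ± 15.4), C3 (42 ± 3.17), Steap4 (23.5 ± 4.06), Saa3 (2.66 ± 0.572), C1ra (1.11 ± 0.317), Serpina3n (0.759 ± 0.531), Serping1 (0.184 ± 0.146) and Cfb (0.0262 ± 0.0454). From C1ra down, neighbours in this order did not differ beyond their spread. Without drug the order was different: C3 led, at 1.97 ± 0.371 TPM in the EV-Proficient and 1.72 ± 0.223 TPM in the EV-Deficient libraries, above Lcn2 at 0.725 ± 0.275 and 0.666 ± 0.227 TPM.

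**Figure D2:**
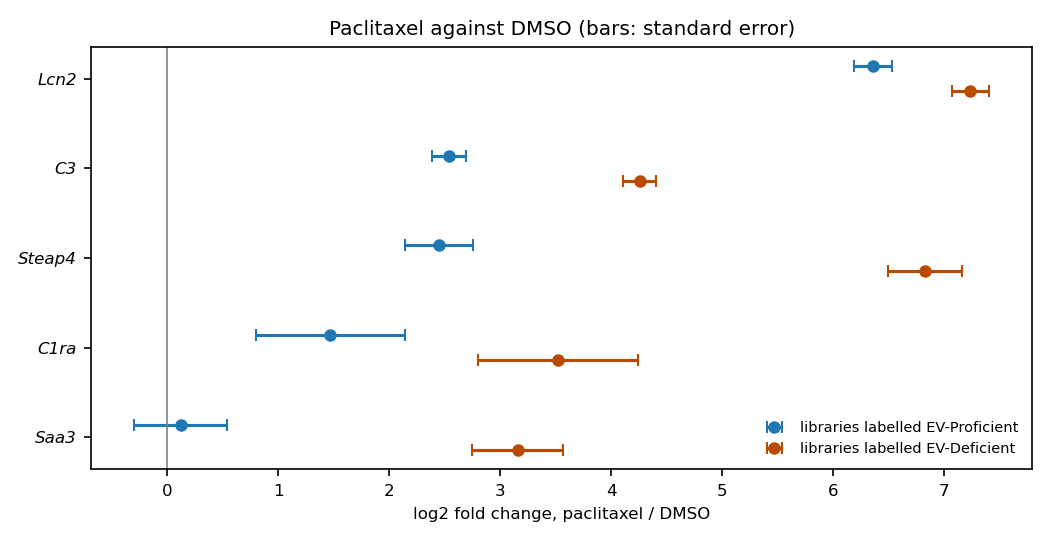
Log2 fold change of paclitaxel against DMSO (horizontal axis) for the 5 tested genes without a group at 0, with standard errors, in libraries of either EV label (3 against 3 each). Lcn2 lies at 6.36 and 7.24, while Steap4 and Saa3 are far apart between the EV labels.

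Under paclitaxel, the genes that were tested between the EV labels were mostly higher in the EV-Deficient libraries. Lcn2, C3, Steap4 and Saa3 were each higher there by edgeR's quasi-likelihood test, with p-values adjusted by the Benjamini-Hochberg method over all 18108 genes and a threshold of 0.05, and for these 4 the libraries of the EV labels did not overlap, as for 19.9% of all tested genes in this direction and 24.1% in the other. Of the 6 tested, 4 were higher and 0 lower, where 16% of all tested genes were called higher and 21.8% lower. With the EV labels of the paclitaxel libraries exchanged, 0 were higher and 4 lower, against 21.8% and 16%. Of the 4 called, Lcn2 differed least, by a log2 fold change of 0.81 ± 0.11 (adjusted p = 4.7e-06), or 1.75-fold. C3 differed by 1.57 ± 0.12 (adjusted p = 3.5e-09), or 2.97-fold, and Saa3 by 2.23 ± 0.38 (adjusted p = 9.7e-05), or 4.7-fold. Steap4 differed most of the 6, by 2.72 ± 0.24 (adjusted p = 1.8e-08), or 6.58-fold. C1ra, at 0.68 ± 0.59 (adjusted p = 0.39, 95% interval -0.54 to 1.90), and Serpina3n, at 1.92 ± 0.93 (adjusted p = 0.12, interval -0.04 to 3.87), did not pass the test, and their libraries overlapped between the EV labels. The 4 calls held under every scaling, filter, tool and left-out library that was run, and their direction turns only with the labels.

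Without drug, the EV labels gave no such difference. C1ra and Serpina3n had too few reads in the DMSO libraries for this comparison. Of the other 4 genes tested, 0 were called higher and 1 lower in the EV-Deficient libraries by the same test, against 12.4% and 10.6% of all tested genes. Lcn2 differed by a log2 fold change of -0.08 ± 0.30 (adjusted p = 0.9), with a 95% interval from -0.69 to 0.54, and C3 by -0.15 ± 0.16 (adjusted p = 0.58), with an interval from -0.49 to 0.19. The C3 interval excludes a difference as large as the one found under paclitaxel. Saa3 stood at -0.81 ± 0.45 (adjusted p = 0.22). Steap4 was lower in the EV-Deficient DMSO libraries (-1.66 ± 0.46, adjusted p = 0.012), although their highest library (0.25 CPM) and the lowest EV-Proficient library (0.239 CPM) overlapped. That call was lost without EV-Proficient DMSO replicate 3 (-1.30, adjusted p = 0.089) or without EV-Deficient DMSO replicate 3 (-1.25, adjusted p = 0.06).

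**Figure D3:**
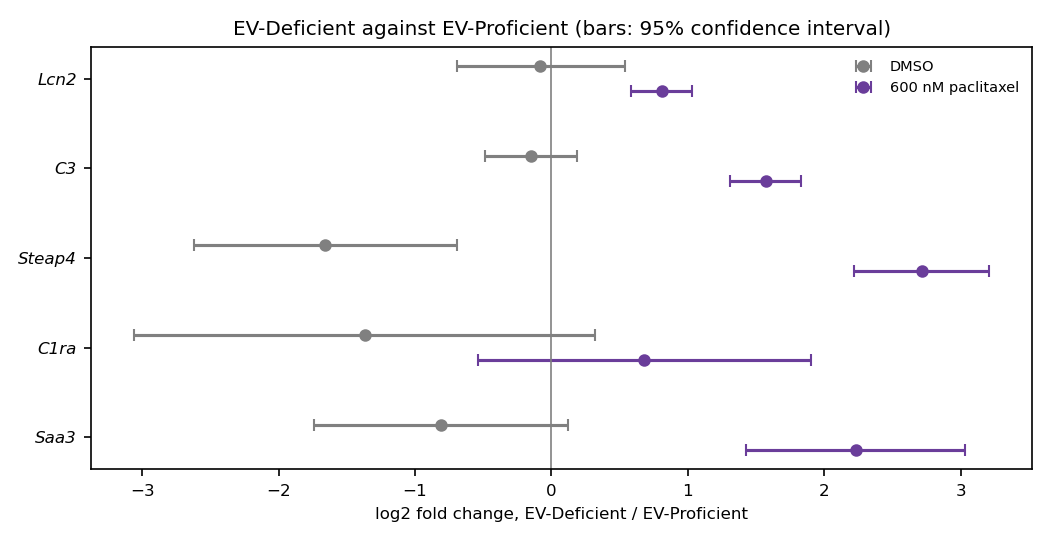
Log2 fold change of EV-Deficient against EV-Proficient libraries (horizontal axis) for 5 genes, with 95% confidence intervals, under DMSO and under 600 nM paclitaxel (3 against 3 libraries each). Under paclitaxel Lcn2, C3, Steap4 and Saa3 lie to the right of 0, and under DMSO only the Steap4 interval leaves out 0, to the left. C1ra is also drawn, but it had too few reads in the DMSO libraries for its DMSO value to be read.

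The difference between the 2 paclitaxel effects was tested as an interaction of EV label and treatment. It was called in the direction of a larger paclitaxel effect in the EV-Deficient libraries for 4 of the 6 genes and in the other direction for 0, against 16.9% and 23.8% of all tested genes, with the labels as given. By edgeR's quasi-likelihood test it was 1.72 ± 0.20 (adjusted p = 7.3e-07) for C3, 4.38 ± 0.52 (adjusted p = 6.4e-07) for Steap4 and 3.04 ± 0.59 (adjusted p = 0.00025) for Saa3 on the log2 scale. For Lcn2 it was 0.88 ± 0.32 (adjusted p = 0.031), and it was not called without EV-Proficient DMSO replicate 3 (0.57, adjusted p = 0.23), EV-Deficient DMSO replicate 1 (0.64, adjusted p = 0.14) or EV-Deficient DMSO replicate 3 (0.86, adjusted p = 0.061). Those DMSO libraries held 21 to 28 Lcn2 counts. For C1ra and Serpina3n, with too few reads under DMSO, no interaction is given, and neither is among the 4.

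With the EV labels of the paclitaxel libraries exchanged, the same edgeR test gave the interaction the opposite sign and called it for fewer of these genes. It was -1.42 ± 0.20 (adjusted p = 0.00018) for C3, -1.06 ± 0.56 (adjusted p = 0.25) for Steap4, -1.42 ± 0.59 (adjusted p = 0.14) for Saa3 and -0.73 ± 0.32 (adjusted p = 0.15) for Lcn2. Of the 6, 0 were called in the positive and 1 in the negative direction, against 6.2% and 3.41% of all tested genes. With the labels of the DMSO libraries exchanged instead, the sizes were the same with the sign turned, and 1 was called in the positive and 0 in the negative direction, against 3.41% and 6.2%. The interaction of Lcn2, Steap4 and Saa3 was thus called only with the labels as given.

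The pattern of Lcn2 over the 12 libraries was closest to that of Rsad2, Ifit1, Oasl2, Rtp4 and Ifi44. Likeness was the root mean square distance between log2 CPM values, each centred on its mean over the 12 libraries, among 10261 genes with a mean of at least 5 CPM. The distances were 0.56, 0.627, 0.664, 0.67 and 0.679 log2 units. Lcn2 varied over these libraries mainly by its rise with paclitaxel, for which it was chosen. The order therefore mostly finds genes with a rise of like size, and shared control of these genes was not tested. Rsad2 and Ifit1 encode interferon-induced antiviral proteins. Rsad2 stood at 63.6, 59.6 and 52.5 CPM in the EV-Proficient and 134, 171 and 53.3 CPM in the EV-Deficient paclitaxel libraries. EV-Deficient paclitaxel replicate 3 was the lowest of its group for Rsad2, as it was for Lcn2, but the highest for C3 (57 CPM) and Saa3 (2.08 CPM). In that library Rsad2 lay within the range of the EV-Proficient paclitaxel libraries, while Lcn2 (68.4 CPM) lay above it. Steap4 ranked 22 (1.48 log2 units) and C3 ranked 45 (1.73) in this order.

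The genes that flank Lcn2 did not follow it. Ptges2, 7.64 kb away, fell with paclitaxel by edgeR's test, by 0.58 ± 0.09 (adjusted p = 5.8e-06) on the log2 scale in the EV-Proficient and 0.62 ± 0.09 (adjusted p = 1.5e-06) in the EV-Deficient libraries. On the other side, 2.7 kb away, 1110008P14Rik stood at -0.51 ± 0.14 (adjusted p = 0.0028) and -0.02 ± 0.13 (adjusted p = 0.93). Beside C3, 6.5 kb away, Gpr108 rose by 0.62 ± 0.09 (adjusted p = 2.2e-06) in the EV-Proficient libraries and stood at 0.21 ± 0.09 (adjusted p = 0.039) in the EV-Deficient ones, a call lost without any one of 9 libraries (0.12 to 0.21) or with no filter (0.17). Beside Saa3, 1.32 kb away, Saal1 stood at 0.08 ± 0.08 (adjusted p = 0.41) and -0.45 ± 0.08 (adjusted p = 5.4e-05). Beside Steap4, 63.9 kb away, Sri fell by 0.72 ± 0.07 (adjusted p = 1.9e-08) in the EV-Proficient and rose by 0.61 ± 0.07 (adjusted p = 1.5e-07) in the EV-Deficient libraries as labelled, and it stood at -0.20 ± 0.07 (adjusted p = 0.019) and 0.09 ± 0.07 (adjusted p = 0.31) with the paclitaxel labels exchanged. Ube2l6, 23.4 kb from Serping1, encodes an enzyme that conjugates ISG15 and rose by 1.23 ± 0.13 (adjusted p = 7.4e-08) and 3.03 ± 0.14 (adjusted p = 8.7e-14).

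The other complement genes that could be tested did not all move with C3. Of 47, 22 were tested and 11 had no library above 3 counts. By edgeR's quasi-likelihood test 9 rose and 4 fell with paclitaxel in the EV-Proficient libraries, where 31.1% of all tested genes rose and 27.1% fell. In the EV-Deficient libraries 12 rose and 2 fell, where 32.4% rose and 30.5% fell, and 5 rose under both labels while 5 went in opposite directions, beside 18.9% and 7.09% of all tested genes. With the EV labels of the paclitaxel libraries exchanged, 11 rose and 2 fell in the EV-Proficient and 11 rose and 1 fell in the EV-Deficient libraries, and 11 rose under both labels while 0 went in opposite directions. That exchange moved the whole table the same way, to 23.9% and 0.779%. The count of 12 was 7 without EV-Deficient DMSO replicate 3, and 6 of 10 where a gene needed 1 CPM in 3 libraries (37.3% of all genes tested so). Of the 22, 7 had too few reads under DMSO to pass the filter on low counts without the paclitaxel libraries, so these counts support no direction. Over the 22 genes the median log2 fold change was 0.85 and 0.84. All 6 paclitaxel libraries were above all 6 DMSO libraries for 4 of the 22, and for 18.3% of all tested genes.

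The most abundant of them, Clu, encodes clusterin, an inhibitor of the terminal complex, and rose by 2.08 ± 0.06 (adjusted p = 3.7e-16) in the EV-Proficient and 2.07 ± 0.06 (adjusted p = 2.9e-16) in the EV-Deficient libraries, the order kept below. C1s1 encodes the protease that C1r activates and lies 6.9 kb from C1ra. It had 0 counts in the EV-Deficient DMSO libraries and a mean of 0.601 ± 0.29 CPM in the EV-Deficient paclitaxel libraries, at least 9.92-fold higher. It had at most 9 counts in any other library, so those 3 were the libraries through which alone it passed the filter on low counts. C2, the classical-pathway counterpart of Cfb, passed under neither label (adjusted p = 0.48 and 0.72), and C1rb, C4b, Cfd and C5ar1 had too few reads to be tested.

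Some genes that control or bind C3 products had opposite values under the EV labels as given. Cd55, which breaks up C3 convertases, fell by 0.92 ± 0.09 (adjusted p = 1.2e-08) in the EV-Proficient libraries, and stood at 0.23 ± 0.09 (adjusted p = 0.027) in the EV-Deficient ones, a call lost without any one of 5 of the 6 EV-Deficient libraries, at 0.11 to 0.22. Itgb2, a chain of complement receptor 3, rose by 4.62 ± 0.16 (adjusted p = 2e-15) and fell by 1.39 ± 0.13 (adjusted p = 5.7e-09). The interaction test was past the threshold for both, at 1.15 ± 0.12 (adjusted p = 1.9e-07) and -6.01 ± 0.20 (adjusted p = 1.8e-15), under each scaling, filter, tool and left-out library run. With the EV labels of the paclitaxel libraries exchanged, Itgb2 rose under both, by 2.00 ± 0.16 (adjusted p = 6.2e-10) and 1.23 ± 0.12 (adjusted p = 2.8e-08), and Cd55 stood at -0.58 ± 0.09 (adjusted p = 7.2e-06) and -0.11 ± 0.09 (adjusted p = 0.29).

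Of 45 other acute-phase genes, 13 were tested and 15 had no library above 3 counts. With paclitaxel, by edgeR's test, 6 rose and 3 fell in the EV-Proficient libraries (31.1% and 27.1% of all tested genes) and 10 rose and 1 fell in the EV-Deficient ones (32.4% and 30.5%), with medians over the 13 of 1.46 and 1.86. Where a gene needed 1 CPM in 3 libraries, 7 were tested and 3 and 6 rose, beside 37% and 37.3% of all genes tested so. With the EV labels of the paclitaxel libraries exchanged, 11 rose and 1 fell in the EV-Proficient and 6 rose and 3 fell in the EV-Deficient libraries. Of the 13, 7 would not have passed the filter on low counts without the paclitaxel libraries, so neither the counts nor the medians support a direction. All 6 paclitaxel libraries stood above all 6 DMSO libraries for 6 of the 13, and for 18.3% of all tested genes. Cp, which encodes the ferroxidase ceruloplasmin, rose by 1.92 ± 0.09 (adjusted p = 1.7e-13) and 4.69 ± 0.10 (adjusted p = 5.8e-19). Under paclitaxel Cp was higher in the EV-Deficient libraries as labelled, by 2.83-fold (adjusted p = 1e-11). Cd14, the lipopolysaccharide co-receptor, rose by 1.79 ± 0.10 (adjusted p = 5.5e-12) and 1.77 ± 0.10 (adjusted p = 2.7e-12), and the paclitaxel libraries of the EV labels stood -0.03 ± 0.10 apart, which was not called (adjusted p = 0.85). Of the relatives of Saa3 and Serpina3n, Saa1, Saa2 and Serpina3m had too few reads to be tested. Serpina3g, of the same cluster as Serpina3n, had 8, 0 and 1 counts in the EV-Proficient and 0, 5 and 1 in the EV-Deficient DMSO libraries, and 20, 6 and 3 and 86, 23 and 58 in the corresponding paclitaxel libraries. It passed the filter through the paclitaxel libraries alone, so no test of it is given.

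**Figure D4:**
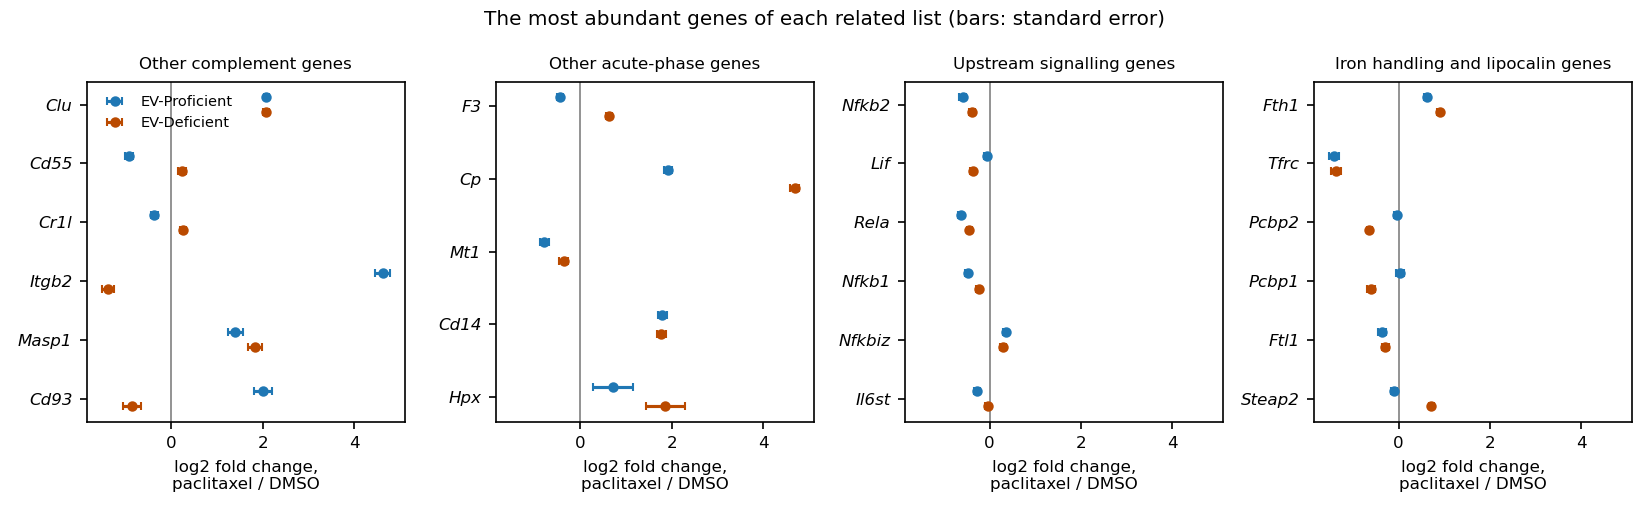
Log2 fold change of paclitaxel against DMSO (horizontal axis, with standard errors, 3 against 3 libraries) for the most abundant genes of each of 4 related lists (5 of the acute-phase list, 6 of the others), by EV label. Clu, Cp and Cd14 lie to the right of 0 under both labels, Tfrc to the left, and Itgb2 and Cd93 on opposite sides, with the EV labels as given.

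The signalling genes upstream of the acute-phase response were nearly all expressed, with 41 of 43 tested. With paclitaxel, by edgeR's test, 24 rose and 7 fell in the EV-Proficient libraries, beside 31.1% and 27.1% of all tested genes, and 25 rose and 8 fell in the EV-Deficient libraries, beside 32.4% and 30.5%. Under both labels 21 rose, beside 18.9% of all tested genes, and the medians were 0.42 and 0.43. All 6 paclitaxel libraries were above all 6 DMSO libraries for 19 of the 41, and for 18.3% of all tested genes. Among these were the C/EBP factors Cebpb, which rose by 1.76 ± 0.18 (adjusted p = 4.1e-08) and 0.98 ± 0.17 (adjusted p = 3.7e-05), and Cebpd, which rose by 1.48 ± 0.19 (adjusted p = 6.7e-07) and 2.43 ± 0.19 (adjusted p = 3.1e-10). Nfkbiz, a nuclear cofactor of NF-kB needed for Lcn2 transcription, rose a little, by 0.35 ± 0.06 (adjusted p = 4.8e-05) and 0.30 ± 0.06 (adjusted p = 0.00017). Of the NF-kB subunit genes, Rela and Nfkb2 fell, Rela by 0.63 ± 0.06 (adjusted p = 3.2e-08) and 0.44 ± 0.06 (adjusted p = 4e-06), and Nfkb2 by 0.59 ± 0.07 (adjusted p = 3.4e-07) and 0.38 ± 0.07 (adjusted p = 8.3e-05). Nfkb1 fell by 0.48 ± 0.06 (adjusted p = 3.6e-07) and 0.24 ± 0.06 (adjusted p = 0.0011), the latter not called under upper-quartile scaling (-0.06, adjusted p = 0.41). Of the other subunits, named after their values were seen, Relb rose by 0.21 ± 0.07 (adjusted p = 0.014) and 0.33 ± 0.07 (adjusted p = 0.00035), the first call being lost without any one of 5 libraries (0.12 to 0.20), and Rel stood at -0.10 ± 0.09 (adjusted p = 0.35) and -0.62 ± 0.09 (adjusted p = 4.6e-06). Il6 had too few reads to be tested.

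Since lipocalin 2 and STEAP4 handle iron, the iron genes were read beside them, and they showed no common direction. Of 31, 26 were tested, of which, by edgeR's test, 13 rose and 8 fell in the EV-Proficient libraries (31.1% and 27.1% of all tested genes) and 10 rose and 10 fell in the EV-Deficient libraries (32.4% and 30.5%), with medians of 0.22 and -0.02. All 6 paclitaxel libraries were above all 6 DMSO libraries for 9 of the 26, and for 18.3% of all tested genes. Fth1, the ferritin heavy chain, rose by 0.62 ± 0.06 (adjusted p = 1.8e-08) and 0.90 ± 0.06 (adjusted p = 4.9e-11), and the transferrin receptor gene Tfrc fell by 1.42 ± 0.11 (adjusted p = 4.2e-10) and 1.36 ± 0.11 (adjusted p = 5.1e-10). Slc22a17, a cell-surface receptor for lipocalin 2, had its levels in another order than Lcn2, with group means of 0.259, 1, 8.46 and 2.73 CPM in the EV-Proficient DMSO, EV-Deficient DMSO, EV-Proficient paclitaxel and EV-Deficient paclitaxel groups. It rose by 5.02 ± 0.29 (adjusted p = 6.7e-12) and 1.43 ± 0.24 (adjusted p = 2e-05), and under paclitaxel it was lower in the EV-Deficient libraries (-1.64 ± 0.22, adjusted p = 5.2e-06), where Lcn2 was higher. The relatives of Steap4 had smaller values. Steap1 fell by 1.13 ± 0.08 (adjusted p = 4.7e-11) in the EV-Proficient libraries and stood at 0.05 ± 0.07 (adjusted p = 0.55) in the EV-Deficient ones, the latter called under upper-quartile scaling (0.24, adjusted p = 0.0063). Steap2 rose by 0.72 ± 0.06 (adjusted p = 1.2e-09) in the EV-Deficient libraries, and its EV-Proficient value of -0.10 ± 0.06 (adjusted p = 0.19) was called without any one of 5 libraries, at -0.14 to -0.17.

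Under paclitaxel the EV-Deficient libraries were higher than the EV-Proficient ones for 8 and lower for 2 of the 22 tested complement genes, where 16% of all tested genes were higher and 21.8% lower, the first count being 4 of 10 where a gene needed 1 CPM in 3 libraries (21.9% of all genes tested so). They were higher for 5 and lower for 0 of the 13 acute-phase genes. They were higher for 16 and lower for 6 of the 41 signalling genes, and higher for 9 and lower for 5 of the 26 iron genes. Exchanging the EV labels of the paclitaxel libraries turns each of these pairs of counts round, with 21.8% and 16% of all tested genes. Of the 22 complement and the 13 acute-phase genes, 7 each would not have passed the filter on low counts without the paclitaxel libraries. These include C1s1, one of the 8 called higher, and Serpina3g, one of the 5. C3ar1, also of the 8, lost its call by edgeR's test without EV-Deficient paclitaxel replicate 3 (1.32, adjusted p = 0.32). Neither the counts nor the medians of the complement and acute-phase lists therefore support a direction. The medians of the 4 lists were 0.36, 0.85, 0.07 and 0.04 on the log2 scale, beside 1.74 for the 6 genes described first and 0 for all tested genes.

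Lcn2, C3 and SAA proteins are also products of leukocytes and hepatocytes, so markers of other cells were read in the same libraries. The 8 epithelial markers, led by Krt8 and Krt18, summed to 4920 to 5320 CPM in the EV-Proficient and 5370 to 5820 CPM in the EV-Deficient DMSO libraries, and to 3390 to 3720 and 3020 to 3140 CPM in the corresponding paclitaxel libraries. The 6 hepatocyte markers summed to 0.455 to 1.05 CPM in every library, with Ttr and Serpina1a at the floor. The 10 leukocyte markers summed to 7.53 to 8.63 CPM in the EV-Proficient and 21 to 21.8 CPM in the EV-Deficient DMSO libraries, and to 40.2 to 44.9 and 26.9 to 47.8 CPM in the corresponding paclitaxel libraries. Cd68, a lysosomal protein also made outside leukocytes, and Csf1r made up most of this sum. The defining leukocyte gene Ptprc had group means of 0.396, 0.89, 1.01 and 0.765 CPM in the same order, and the T-cell gene Cd3e was at the floor in every library. The 6 fibroblast markers summed to 1.58 to 3.22 CPM under DMSO and 5.38 to 8.19 CPM under paclitaxel, and the 4 endothelial markers to 1.77 to 2.6 and 2.75 to 4.35 CPM. Like Lcn2, the leukocyte, fibroblast and endothelial sums were higher in every paclitaxel than in every DMSO library, while the epithelial sums were lower in each. Unlike Lcn2, the leukocyte sums overlapped between the EV labels under paclitaxel. The part of these markers in the results was not tested.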

How the data were processed

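The 12 libraries were prepared from poly(A) RNA with a TruSeq stranded kit, per the labels' protocols. In the single table that the authors deposited, values are raw counts, whole numbers without normalization. STAR 2.5.0a and GRCm38 are named in the submitters' processing notes, while the counting program, its use of strand and the annotation release are not given in the sources used here. Columns were matched to samples by the labels' descriptions, and 0 columns belonged to other samples. The 2 rows added by the authors (gfp, with 0 counts throughout, and dngfr) were left out of library sizes and tests.

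The tests used edgeR 4.0.16 (R 4.3.3). After filterByExpr with a minimum count of 10, 18108 genes remained. TMM factors lay between 0.89 and 1.15. All 12 libraries entered 1 quasi-likelihood fit, which had 4 group means, no covariates and a common dispersion of 0.00956. In each of the 5 comparisons the Benjamini-Hochberg adjustment ran over all genes tested, with a threshold of 0.05. A standard error is the log2 fold change over the root of its F statistic. TPM used exon lengths of GENCODE M21, matched for 55240 of 55421 genes. No replicate pair agreed within sampling noise (chi-square per degree of freedom 4.2 to 27.8 over 12 pairs). Reads had no molecular identifiers and so are not separate molecules: floors cover counting error only. The code was tested on simulated data.

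The members and gene lists were chosen with earlier results of these data known. Named genes were the 8 members, the 6 most abundant genes of each list, 25 genes named regardless of their values, the nearest tested protein-coding neighbours, and the 5 genes most like Lcn2. Of the neighbours and list genes, those nearest to a member in position or function are described, and some genes of the rule are not reported here. The alternatives tried were DESeq2 1.42.0, scaling by upper quartiles or by median of ratios, no filter, 1 CPM in 3 libraries, a replicate block, the compared groups alone, unscaled library totals for CPM, and each library left out. An exchange of the EV labels within 1 treatment was added after seeing the data, for the members, the gene lists, the counts over the whole table, Itgb2, Cd55 and Sri.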

Additional observations from a re-analysis of the deposited data

Results flagged for a closer look

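The paclitaxel effect differed between the EV labels by the interaction test of edgeR (adjusted p under the threshold) for 38 of the genes named above or in this paragraph, each given as the EV-Deficient minus the EV-Proficient log2 fold change, for the libraries as labelled. All of these values rest on the EV labels, and over the whole table the test called 7370 genes with the labels as given and 1739 with the labels exchanged in either treatment. The values of the members, described above with and without an exchange of labels, were 0.88 for Lcn2, 3.04 for Saa3, 1.72 for C3 and 4.38 for Steap4. Among complement genes they were 1.15 for Cd55, 0.62 for Cr1l, -2.87 for Cd93 and -6.01 for Itgb2. Among acute-phase genes they were 2.76 for Cp, 1.08 for F3 and 0.42 for Mt1. Among signalling genes they were 0.95 for Cebpd, 0.59 for Stat3, 0.53 for Irf1, 0.24 for Nfkb1 and 0.24 for Il6st, and they were negative for Lif (-0.31), Socs3 (-0.46), Il1a (-0.48) and Cebpb (-0.78). Among iron genes they were 1.19 for Steap1, 0.81 for Steap2, 0.27 for Fth1, -0.60 for Pcbp2, -0.63 for Pcbp1 and -3.59 for Slc22a17, the lipocalin 2 receptor gene. Among the neighbours they were 1.81 for Ube2l6, 1.32 for Sri, 0.49 for 1110008P14Rik, -0.41 for Gpr108 and -0.53 for Saal1. Among the other genes named they were 1.39 for Rtp4, 0.39 for Krt8, -0.51 for Rel, -0.75 for Krt18, -1.52 for Ptprc, -3.09 for Krt14 and -4.85 for Csf1r. C1s1, C3ar1 and Ifi44 had a group with every library at or under 3 counts, so their fitted values are not given, and the 38 leave them out. Some of these calls were lost when 1 library was left out. Mt1 lost its call without EV-Proficient DMSO replicate 3 (0.33) or 2 (0.36), and Cebpb (-0.60) lost its call without EV-Deficient paclitaxel replicate 3. Cebpb (-0.69), Lif (-0.24) and Il1a (-0.40) lost theirs without EV-Proficient paclitaxel replicate 1, Fth1 (0.25) without EV-Deficient DMSO replicate 2, and Socs3 without EV-Proficient paclitaxel replicate 2 (-0.33) or EV-Deficient paclitaxel replicate 1 (-0.31). Il1a lost its call also without EV-Proficient DMSO replicate 2, EV-Deficient DMSO replicate 1 or EV-Proficient paclitaxel replicate 3 (-0.44 to -0.49), Il6st without any one of the DMSO libraries (0.20 to 0.25), and Nfkb1 without any one of them but EV-Proficient DMSO replicate 3 (0.21 to 0.24). The calls of 1110008P14Rik (0.36 to 0.52), Ptprc (-1.12 to -1.54) and Rtp4 (1.16 to 1.32) were lost without any one of 8, 7 and 3 libraries. Calls were also lost with other scaling, filters or tools. Under upper-quartile scaling these were Gpr108 (-0.29, adjusted p = 0.061), Ptprc (-1.40, adjusted p = 0.051), Lif (-0.19, adjusted p = 0.087), Socs3 (-0.34, adjusted p = 0.082) and Il1a (-0.36, adjusted p = 0.12). With no filter they were Nfkb1 (0.18, adjusted p = 0.24), Il6st (0.18, adjusted p = 0.25) and Fth1 (0.21, adjusted p = 0.099). Il1a lost its call also with DESeq2 (-0.44, adjusted p = 0.14) and where a gene needed 1 CPM in 3 libraries (-0.43, adjusted p = 0.054). The Lcn2 value without single DMSO libraries is given above. The interaction was called for 16.9% of all tested genes in the positive and 23.8% in the negative direction.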

How the results depend on the processing

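The 4 genes called under paclitaxel (Lcn2, C3, Steap4 and Saa3) numbered 4 under the alternatives run, and the interaction was called for 3 to 5 of the 6 with the labels as given, the count of 5 including Serpina3n, whose test is void with a group at 0. An exchange of EV labels within 1 treatment was added after seeing the data. It left 1 member and 1739 genes called for the interaction. With the paclitaxel labels exchanged, the differences under paclitaxel were -0.81 (Lcn2), -2.23 (Saa3), -1.57 (C3), -2.72 (Steap4), 2.62 (Itgb2) and -0.34 (Cd55), the interaction was -0.73 (Lcn2), -1.42 (Saa3), -1.42 (C3) and -1.06 (Steap4), and the EV-Deficient paclitaxel effect was 1.23 for Itgb2 and -0.11 for Cd55. With the DMSO labels exchanged, the differences without drug were 1.66 (Steap4), -3.39 (Itgb2) and 0.81 (Cd55), the interaction was 0.77 (Itgb2) and -0.46 (Cd55), and the EV-Deficient paclitaxel effect was 2.00 for Itgb2 and -0.58 for Cd55. The 1 gene called without drug, Steap4, was 0 to 1 over the left-out libraries. Saa3 in the EV-Proficient libraries stood at 0.12, and at -0.12 to 0.29 over the left-out libraries, the lowest without EV-Proficient DMSO replicate 1 and the highest without EV-Proficient DMSO replicate 2. With the labels as given, the number of genes called over the whole table ranged from 2980 to 5697 without drug, 5500 to 7007 under paclitaxel, 6560 to 7455 for the interaction, 9577 to 10894 for paclitaxel in the EV-Proficient and 9991 to 11767 in the EV-Deficient libraries. Upper-quartile scaling moved the median of all genes from 0.07 to 0.26 for paclitaxel in the EV-Deficient libraries and from -0.04 to 0.08 for the interaction, and the share of calls that were higher from 51.5 to 63.4% and from 41.4 to 53.9%, and under paclitaxel between EV labels from 42.4 to 58.2%. Without drug that share was 53.9%, and 64.1% with no filter and 43.1 to 43.8% without one or another EV-Proficient paclitaxel library. Replicate numbers did not pair the samples: correlations of same-numbered deviations were -0.0812 to 0.097 over 18 pairs, and 4 of 12 libraries correlated best with their own number. With the replicate block 4258 genes were called without drug (4162 without the block), 6858 (6853) under paclitaxel, 7386 (7370) for the interaction, and 10520 (10538) and 11363 (11396) for paclitaxel in the EV-Proficient and EV-Deficient libraries, and members called stayed at 1, 4 and 4. Of the members' tested differences under the alternatives with the labels as given, 321 kept direction and side of the threshold, 5 lost a call and 1 (Serpina3n) gained one. The 321 also count differences that stayed uncalled. Among these are differences of C1ra and Serpina3n, which had too few reads under DMSO for a comparison. Of the members' untested paclitaxel fold changes, 216 stayed within the spread between replicates, 4 moved by more and 1 changed sign. With 3 counts at 0.0492 to 0.121 CPM, changes in C1ra, Serpina3n, Serping1 and Cfb were hard to detect at this depth.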
